A study of Arabis alpina with 18 samples.

Results

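The 3 genes described here are gibberellin oxidase genes of Arabis alpina, a perennial relative of Arabidopsis: GA3OX1 (Aa_G112460h1, Arabidopsis locus AT1G15550), GA2OX2 (Aa_G655020h1, AT1G30040) and GA2OX6 (Aa_G6340h1, AT1G02400). They were found among 34220 genes of the deposited count table by their Arabidopsis loci, which the authors' deposited lists of changed genes pair with gene identifiers. Each locus matched 1 gene, and all 3 genes were among the 21275 with enough reads to be tested. Those lists hold genes that passed the authors' own test on the same libraries: GA3OX1 stands in the list of genes lower in eop055 apices at 5 weeks, and GA2OX2 and GA2OX6 stand in the list of genes higher in eop055 leaves. The difference of each gene in its own listed comparison is therefore a description and not independent evidence.

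Gibberellins are growth hormones that promote stem elongation, leaf expansion and, in many rosette plants, flowering. In Arabidopsis GA20-oxidases and then GA3-oxidases carry out the last steps to active gibberellin, and GA2-oxidases inactivate the active forms and their direct precursors. Active gibberellin binds GID1 receptors and leads to the destruction of DELLA repressors, and the amounts of oxidase transcripts respond in turn to gibberellin signalling. GA3OX1 makes active gibberellin in shoots of Arabidopsis, while GA2OX2 and GA2OX6 act against it.

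Messenger RNA was sequenced from eop055 and pep1-1 mutants, both in the Pajares accession and kept in long days, with 3 libraries in each of 6 groups. Each genotype gave leaves 5 and 6 at 5 weeks, and shoot apices, cut out by dissection, at both 5 and 3 weeks. PEP1 corresponds to FLC, a repressor of flowering in Arabidopsis, and pep1-1 is a mutant allele of it. The labels give neither the lesion of eop055 nor whether eop055 plants also carry pep1-1. The series concerns control of flowering by TOE2, an AP2-like floral repressor in Arabidopsis, and a wild-type group was not analysed here.

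Libraries held 7987096 to 14132723 gene reads. Nothing in the labels ties the replicates to separate plants or pools, and the p-values therefore reflect only library-to-library spread, which may be technical. The 3 eop055 leaf libraries differed most among themselves, with a chi-square per gene of 8.71 to 24.7 between pairs, against 1.5 to 4.14 between pep1-1 leaf libraries. None of 13 leaf and meristem marker loci was paired with a gene, so the tissue labels were not checked against them. LFY, the floral meristem regulator, had 0 reads in all 6 leaf libraries and 2.60 to 24.6 CPM in apices. It was not among the markers fixed for that check, and not every floral gene followed it. SEP4 stood at 0.614 to 1.75 CPM in leaves, 2.38 to 8.28 CPM in eop055 apices at 5 weeks and 0 to 0.276 CPM in the other apices. In whole organs a change in RNA per cell and a change in the share of cells of a type cannot be told apart. Levels below are counts scaled to library size (CPM) with TMM factors, a correction for differences in RNA composition. Gene length was not used, so levels of a gene are compared between groups and not with those of other genes.

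GA3OX1 moved in opposite directions with age in the apices of the 2 genotypes. In eop055 apices it fell with age and in pep1-1 apices it rose, and at 5 weeks it was 2.28-fold lower in eop055 apices than in pep1-1 apices. In leaves it was also lower in eop055, by 1.99-fold. The change of its genotype difference with apex age passed the test, and for GA2OX2 and GA2OX6 it did not.

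At 5 weeks GA3OX1 stood at 17.2, 16.6 and 14.4 CPM in eop055 apices, against 40.8, 29.2 and 39.5 CPM in pep1-1 apices. The groups did not overlap, and the lowest pep1-1 library lay above every eop055 library. The means were 16.1 ± 1.49 CPM in eop055 and 36.5 ± 6.36 CPM in pep1-1 (SD, n = 3 each), and on the log2 scale GA3OX1 fell by 1.19 ± 0.165 (± SE) in eop055. The adjusted p was 5.41e-05 by edgeR (quasi-likelihood test, Benjamini-Hochberg adjustment over all genes tested), in the comparison that put GA3OX1 into the authors' list.

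At 3 weeks the order was the other way round. GA3OX1 stood at 25.1, 24.1 and 21.5 CPM in eop055 apices, against 15.1, 17.7 and 16.8 CPM in pep1-1 apices. Here too the groups did not overlap, with every eop055 library above every pep1-1 library. The log2 fold change was 0.51 ± 0.168 with a 95% interval of 0.16 to 0.86, and it did not pass the test, with an adjusted p of 0.113 by edgeR. When the 2 groups alone were fitted the adjusted p was 0.00149, and it ranged from 0.00149 to 0.30 over the 14 alternatives tried with edgeR or DESeq2.

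From these same libraries, GA3OX1 averaged 16.1 CPM at 5 weeks and 23.5 ± 1.83 CPM at 3 weeks in eop055 apices, where it fell by 0.55 ± 0.167 on the log2 scale. In pep1-1 apices it averaged 36.5 CPM at 5 weeks and 16.5 ± 1.33 CPM at 3 weeks (SD, n = 3 each), 2.22-fold higher at 5 weeks. The adjusted p was 0.0148 in eop055 and 2.37e-05 in pep1-1 by edgeR. The fall in eop055 was no longer called without eop055 5-week replicate 3 (-0.48) or eop055 3-week replicate 1 (-0.50), with adjusted p of 0.0644 and 0.0554 and a range of 0.000358 to 0.0644 over its alternatives in edgeR or DESeq2. The change of the genotype difference with age was tested directly. The log2 difference at 5 weeks minus that at 3 weeks was -1.70 ± 0.236 (95% interval -2.19 to -1.21), with an adjusted p of 9.79e-05 by edgeR. That test shares its 5-week libraries with the comparison behind the authors' list. Across all genes 10.6% were called in it, 6.16% lower.

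**Figure D1:**
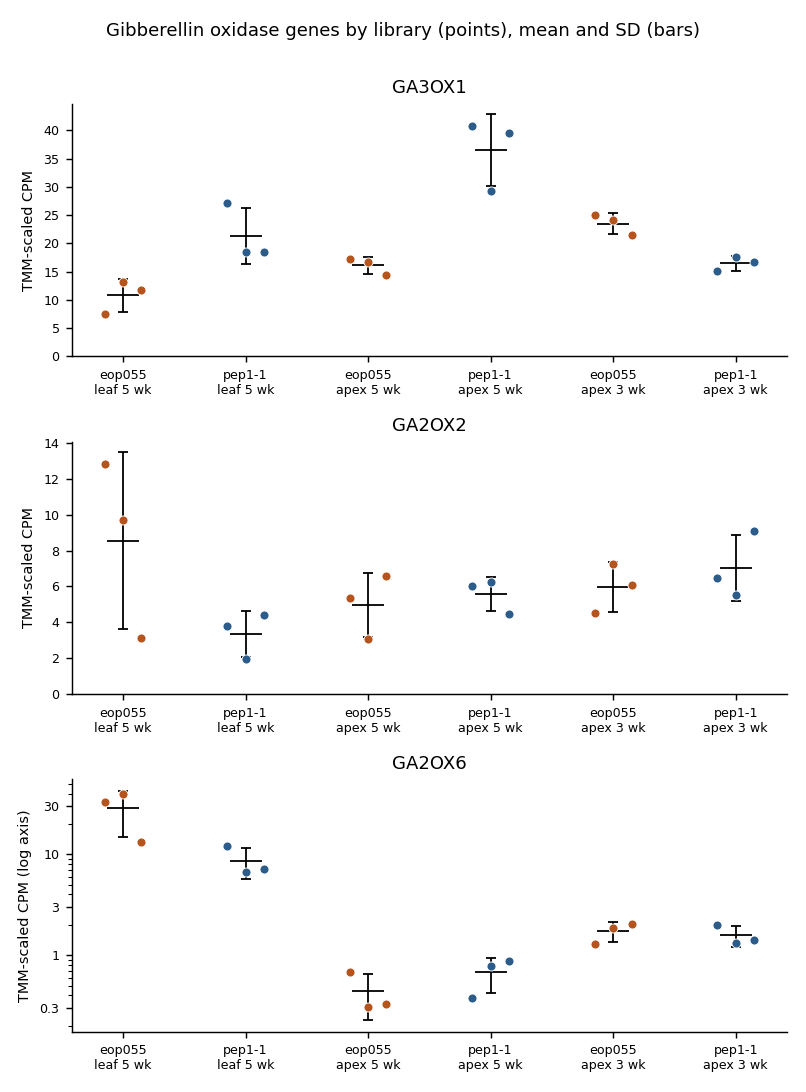
TMM-scaled CPM (y axis; log axis for GA2OX6) of the 3 genes in each of the 18 libraries (points), by genotype, organ and age (x axis), with group means and SD as bars (n = 3). GA3OX1 is highest in pep1-1 apices at 5 weeks (29.2 to 40.8 CPM), and GA2OX6 is highest in eop055 leaves (13.2 to 39.6 CPM). Each GA2OX2 group overlaps its neighbour in the order of means. Its pep1-1 leaf libraries (1.94 to 4.40 CPM) lie just below its pep1-1 apex libraries at 5 weeks (4.46 to 6.24 CPM).

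The paired genes of the floral list were read at higher levels in the eop055 apices at 5 weeks. Pairing needed a place in the authors' lists of changed genes on these libraries, so this is a description and not independent evidence. Of 12 loci 7 were paired with a gene (LFY, AP1, AP3, PI, SEP1, SEP3 and SEP4), and their summed level was 23.0 to 61.0 CPM in eop055 libraries against 3.50 to 3.82 CPM in pep1-1 libraries. In the pep1-1 libraries SEP1 and SEP3 had 0 reads and AP1 and PI had 1 read each over the group. GA3OX1 spanned 14.4 to 17.2 CPM over the 3 eop055 libraries. In replicates 1, 2 and 3 it stood at 17.2, 16.6 and 14.4 CPM, beside floral sums of 31.8, 23.0 and 61.0 CPM. At 3 weeks the floral sums were 3.36 to 4.54 CPM in eop055 and 5.00 to 6.53 CPM in pep1-1. The part of the floral genes' difference in that of GA3OX1 was not tested.

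In leaves GA3OX1 stood at 7.45, 13.2 and 11.8 CPM in eop055, against 27.1, 18.5 and 18.4 CPM in pep1-1. All eop055 libraries lay below all pep1-1 libraries. GA3OX1 fell by 0.99 ± 0.191 on the log2 scale in eop055 leaves, with an adjusted p of 0.000768 by edgeR, in a comparison other than the one that named it. The genotype difference was not shown to differ between leaf and apex at 5 weeks. The leaf difference minus the apex difference was 0.20 ± 0.254 on the log2 scale, with a 95% interval of -0.34 to 0.73 and an adjusted p of 0.655 by edgeR.

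Leaves held less GA3OX1 than apices of the same age. In eop055 it averaged 10.8 ± 2.99 CPM in leaves and 16.1 ± 1.49 CPM in apices, and in pep1-1 it averaged 21.3 ± 5.01 CPM in leaves and 36.5 ± 6.36 CPM in apices (SD, n = 3 each). The log2 fold changes were -0.58 ± 0.189 in eop055 and -0.78 ± 0.167 in pep1-1, with adjusted p of 0.00813 and 0.000296 by edgeR. With library totals they were -1.49 and -1.57, where the median gene stood at -1.05 in eop055 and -0.92 in pep1-1. Without eop055 leaf replicate 1 the eop055 value was -0.37, with an adjusted p of 0.0624 against a range of 3.76e-07 to 0.0624 over the alternatives in edgeR or DESeq2. With TMM scaling the median gene had a leaf-to-apex log2 ratio of -0.14 in eop055 and -0.12 in pep1-1. The median size of that ratio, regardless of sign, was 1.16 in eop055 and 0.996 in pep1-1, larger than for GA3OX1.

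Ordered by mean, GA3OX1 was highest in pep1-1 apices at 5 weeks (36.5 CPM). Then came eop055 apices at 3 weeks (23.5 CPM) and pep1-1 leaves (21.3 CPM), whose libraries overlapped. Next were pep1-1 apices at 3 weeks (16.5 CPM) and eop055 apices at 5 weeks (16.1 CPM), which overlapped as well. Lowest were eop055 leaves (10.8 CPM). Every other pair of neighbours in this order was separated by a gap between library ranges.

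GA2OX6, which inactivates gibberellins, was read mainly in leaves in both genotypes and was higher in eop055 leaves. In leaves it stood at 33.3, 39.6 and 13.2 CPM in eop055, against 12.1, 6.73 and 7.22 CPM in pep1-1. The groups did not overlap, but eop055 replicate 3 lay close to the highest pep1-1 library. The means were 28.7 ± 13.7 CPM in eop055 and 8.68 ± 2.96 CPM in pep1-1 (SD, n = 3 each), so GA2OX6 was 3.28-fold higher in eop055 leaves.

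That rise, 1.72 ± 0.329 on the log2 scale with an adjusted p of 0.00119 by edgeR, lay in the comparison that named the gene. It ranged from 1.42 to 2.07 when single libraries were left out. It was not called when the 2 leaf groups alone were fitted, where the adjusted p was 0.0853, against 6.19e-09 to 0.0853 over all its alternatives in edgeR or DESeq2.

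In apices GA2OX6 rested on few reads. At 5 weeks it had 10, 5 and 5 reads in eop055 libraries and 6, 8 and 10 reads in pep1-1 libraries. At 3 weeks it had 19, 27 and 26 reads in eop055 and 26, 19 and 23 reads in pep1-1. In neither age did the genotypes separate: the log2 fold changes were -0.57 ± 0.794 at 5 weeks (95% interval -2.26 to 1.12) and 0.14 ± 0.503 at 3 weeks (-0.94 to 1.21).

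GA2OX6 also fell with age in eop055 apices. In eop055 apices it averaged 0.440 ± 0.213 CPM at 5 weeks and 1.73 ± 0.385 CPM at 3 weeks (SD, n = 3 each), and it fell by 1.96 ± 0.636 on the log2 scale with an adjusted p of 0.025 by edgeR. In pep1-1 apices it averaged 0.683 ± 0.264 CPM at 5 weeks and 1.58 ± 0.369 CPM at 3 weeks, with a log2 fold change of -1.25 ± 0.626. In both genotypes every 5-week library lay below every 3-week library, although the pep1-1 change did not pass edgeR's test (adjusted p 0.128). It passed with DESeq2 (0.0186) and with only those 2 groups fitted (0.0161), over a range of 0.0161 to 0.367. The eop055 fall was no longer called by edgeR without eop055 5-week replicate 2 (-1.75) or 3 (-1.80) or eop055 3-week replicate 2 (-1.90) or 3 (-1.84), with adjusted p of 0.0696 to 0.0906 among alternatives that ranged from 0.000213 to 0.0906. The difference between the genotypes in this change was -0.71 ± 0.939 on the log2 scale (adjusted p 0.722 by edgeR, 95% interval -2.71 to 1.29).

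The contrast between organs was large. In eop055 GA2OX6 was 64.2-fold higher in leaves than in 5-week apices, and in pep1-1 it was 13.2-fold higher. The rises of 6.01 ± 0.471 and 3.72 ± 0.506 on the log2 scale had adjusted p of 4.69e-09 and 4.69e-06 by edgeR. They kept their call under every alternative run, with values of 5.09 to 6.45 in eop055 and 2.93 to 3.96 in pep1-1. The genotype difference in leaves exceeded that in 5-week apices by 2.29 ± 0.878 on the log2 scale (95% interval 0.42 to 4.16), which did not pass edgeR's test (adjusted p 0.081). It passed without eop055 leaf replicate 3 (2.65) and without pep1-1 leaf replicate 1 (2.61), and with DESeq2 (2.35), with adjusted p of 0.000783, 0.0451 and 0.00245 in a range of 0.000783 to 0.221.

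Ordered by mean, GA2OX6 was highest in eop055 leaves and next in pep1-1 leaves. Then came the 3-week apices, eop055 above pep1-1 by 0.15 CPM, and last the 5-week apices, pep1-1 above eop055 by 0.243 CPM. Libraries overlapped between genotypes within each apex age and nowhere else between neighbours.

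GA2OX2, in Arabidopsis a GA2-oxidase gene that responds to cytokinin and KNOX proteins, was called in 1 of the 9 comparisons. Its group means lay between 3.37 and 8.55 CPM, and each group overlapped its neighbour in the order of means. Highest were eop055 leaves, then pep1-1 apices at 3 weeks, eop055 apices at 3 weeks, pep1-1 apices at 5 weeks, eop055 apices at 5 weeks and pep1-1 leaves.

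In leaves GA2OX2 stood at 12.8, 9.69 and 3.15 CPM in eop055, against 3.79, 1.94 and 4.40 CPM in pep1-1. Of the eop055 libraries 2 lay above every pep1-1 library, and replicate 3 lay within the pep1-1 range. The log2 fold change was 1.33 ± 0.467, with an adjusted p of 0.0491 by edgeR at the edge of the threshold, in the comparison that named the gene. Its call was lost in 10 of 14 alternatives, over a range of adjusted p of 0.000622 to 0.226 in edgeR or DESeq2. These included leaving out pep1-1 leaf replicate 1 (1.43), 2 (1.05) or 3 (1.57) or eop055 leaf replicate 1 (0.88) or 2 (1.24). Without eop055 leaf replicate 3 it was 1.75.

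In apices GA2OX2 stood at 3.06 to 7.27 CPM in eop055 and 4.46 to 9.07 CPM in pep1-1 over both ages, and all groups overlapped. Its log2 fold change between genotypes was -0.17 ± 0.421 at 5 weeks (95% interval -1.07 to 0.74) and -0.25 ± 0.40 at 3 weeks (-1.10 to 0.62). Between 5 and 3 weeks it was -0.26 ± 0.412 in eop055 (-1.14 to 0.63) and -0.33 ± 0.409 in pep1-1 (-1.21 to 0.54). None of these 4 values passed edgeR's test (adjusted p 0.557 to 0.857). On the log2 scale the intervals leave room for falls of about 1 and for rises of up to 0.54 to 0.74.

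Leaf against apex at 5 weeks gave GA2OX2 log2 fold changes of 0.77 ± 0.419 in eop055 and -0.73 ± 0.472 in pep1-1, neither called by edgeR (adjusted p 0.102 and 0.168). In pep1-1 the leaf libraries (1.94 to 4.40 CPM) lay below the apex libraries (4.46 to 6.24 CPM) by a narrow gap, and in eop055 the organs overlapped. The eop055 value passed without eop055 leaf replicate 3 (1.196, adjusted p 0.0015) and turned to -0.15 when libraries were scaled by their totals alone. Over the alternatives in edgeR or DESeq2 its adjusted p ranged from 0.0015 to 0.727. The genotype difference in leaves minus that in 5-week apices was 1.499 ± 0.631 (adjusted p 0.114 by edgeR), and 1.93 without eop055 leaf replicate 3 (adjusted p 0.00369, range 0.00369 to 0.274). The genotype difference at 5 weeks minus that at 3 weeks in apices was 0.08 ± 0.581 (95% interval -1.17 to 1.33), with either sign when single libraries were left out.

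Counted over the 3 genes, all 3 were called between genotypes in leaves, 2 higher and 1 lower in eop055. There 26.6% of all genes tested were called, 15.0% higher and 11.6% lower. The 2 higher genes, GA2OX2 and GA2OX6, were taken from the authors' list for this comparison, so nothing about leaves is read from the count. In 5-week apices 1 of 3 was called, lower, against 14.5% of all genes called and 7.30% called lower. That gene, GA3OX1, was likewise taken from the authors' list for the same comparison. In 3-week apices edgeR called 0 of 3, against 3.68% of all genes. There 1 of 3 had an unadjusted p under 0.05, and DESeq2 called 0. With age 2 of 3 were called in eop055 apices, both lower, where 35.9% of all genes were called, 19.4% lower. In pep1-1 apices 1 of 3 was called, higher, where 38.9% of all genes were called, 18.7% higher. Between leaf and apex 2 of 3 were called in each genotype, 1 in each direction. There 83.2% of all genes were called in eop055, 39.0% higher and 44.2% lower in leaves, and 80.3% in pep1-1, 37.3% higher and 43.0% lower. For the leaf difference minus the apex difference edgeR called 0 of 3, with 20.1% of all genes called, 10.9% higher and 9.16% lower, while 2 of 3 had an unadjusted p under 0.05 and DESeq2 called 2. The comparisons share libraries and are not independent of each other.

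**Figure D2:**
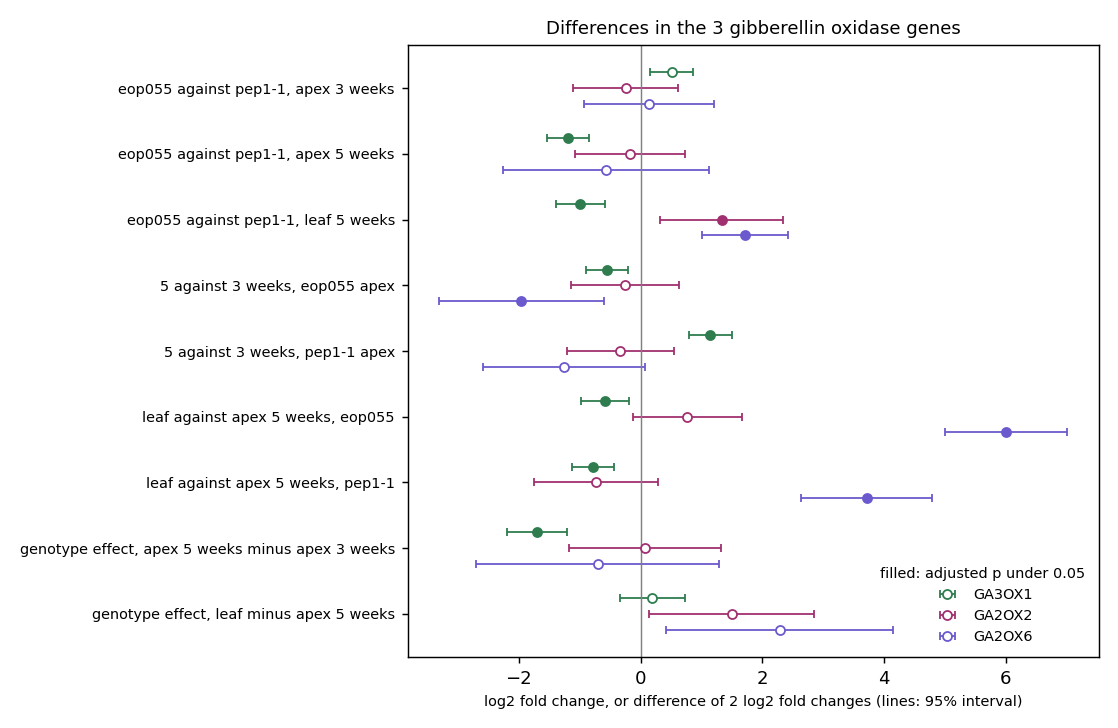
Log2 fold changes, or differences between 2 log2 fold changes, of the 3 genes (x axis) in the 9 comparisons (y axis), with 95% intervals as lines and filled points for adjusted p under 0.05 in edgeR's quasi-likelihood test. In eop055 leaves GA3OX1 lies below 0 (-0.99) while GA2OX2 and GA2OX6 lie above it (1.33 and 1.72), and the GA3OX1 genotype effect falls by 1.70 between apex ages.

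Reads of GA3OX1 were also divided by the reads of GA2OX2 and GA2OX6 together in each library. The ratio is not per length, so its level says nothing of relative transcript numbers, and it was not tested. Because the make-up of the GA2OX reads differed between leaves and apices and between apex ages, the ratio is set side by side between genotypes within an organ and age only. In leaves it was 0.162, 0.268 and 0.718 in eop055, against 1.71, 2.13 and 1.59 in pep1-1. No eop055 leaf library reached the pep1-1 range, and replicate 3 came nearest. Both GA2OX genes were taken from the authors' list of genes higher in eop055 leaves. A lower leaf ratio in eop055 follows in part from that choice, and nothing is read from it.

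In 5-week apices the ratio was 2.85, 4.95 and 2.09 in eop055, against 6.36, 4.15 and 7.39 in pep1-1, with overlap. In 3-week apices it was 4.33, 2.64 and 2.64 in eop055, against 1.78, 2.59 and 1.60 in pep1-1. The eop055 libraries at 3 weeks lay above the pep1-1 libraries, by a narrow gap between 2.64 and 2.59. As raw reads, with no correction for length, GA2OX6 made up 62.2 to 80.8% of the summed GA2OX2 and GA2OX6 reads in leaves, 4.76 to 16.4% in 5-week apices and 13.5 to 25.0% in 3-week apices.

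**Figure D3:**
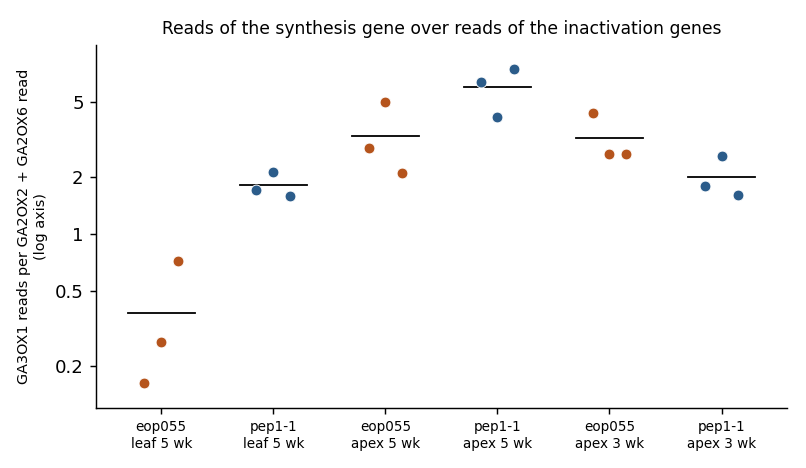
Reads of GA3OX1 divided by reads of GA2OX2 plus GA2OX6 in each library (points, log y axis), by group (x axis), with group means as lines. Within leaves the 3 eop055 libraries (0.162 to 0.718) lie below the 3 pep1-1 libraries (1.59 to 2.13), and within 5-week apices the genotypes overlap. Both GA2OX genes come from the authors' list of genes higher in eop055 leaves, so the leaf contrast is not independent evidence.

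A wider list of 58 Arabidopsis loci of gibberellin synthesis, inactivation, perception and response was searched in the same way. Of these 8 were paired with a gene, the 3 above and 5 others, all 5 present because the authors had called them lower in eop055 leaves or 5-week apices. Receptors, DELLA repressors and the early synthesis enzymes had no paired gene and were not assessed. In leaves 4 of the 5 others were called lower in eop055 and none higher, where 11.6% of all genes were called lower. In 5-week apices 2 of 5 were called lower, where 7.30% of all genes were. Nothing is read from these counts, since the same comparisons put the 5 genes into the lists. In 3-week apices edgeR called 0 of 5, where 3.68% of all genes were called, with 0 at an unadjusted p under 0.05 and 0 with DESeq2. The median log2 fold change of the 5 was -1.21 in leaves, -0.36 in 5-week apices and -0.01 in 3-week apices. Over all genes tested it was -0.01, 0.00 and 0.00. The medians of the 5 in leaves and 5-week apices follow in part from how the genes were listed, and nothing is read from them either.

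GA20OX3, a GA20-oxidase gene that acts just before GA3OX1 in synthesis, was read almost entirely in leaves. It stood at 6.02, 4.98 and 11.9 CPM in eop055 leaves, against 29.5, 20.2 and 19.6 CPM in pep1-1 leaves. All eop055 libraries lay below all pep1-1 libraries, and eop055 replicate 3 was the highest of its group. It fell by 1.58 ± 0.257 on the log2 scale in eop055, with an adjusted p of 0.000107 by edgeR in the comparison that listed it. The 12 apex libraries held 0 to 6 reads each.

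GASA14, of the gibberellin-stimulated family of small cysteine-rich proteins, was lower in eop055 at 5 weeks in both organs. In apices it stood at 69.5, 79.8 and 56.8 CPM in eop055, against 146, 171 and 166 CPM in pep1-1. At 3 weeks the genotypes overlapped, at 111 to 176 CPM in eop055 and 135 to 174 CPM in pep1-1. In leaves it stood at 4.93, 8.08 and 4.73 CPM in eop055, against 17.1, 12.1 and 10.9 CPM in pep1-1.

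Its log2 fold changes between genotypes were -1.23 ± 0.194 in 5-week apices and -1.21 ± 0.311 in leaves, with adjusted p of 0.000757 and 0.0111 by edgeR. The leaf fall was not called without pep1-1 leaf replicate 1 (-0.99) or eop055 leaf replicate 1 (-1.10) or 3 (-1.06), over a range of adjusted p of 2.65e-06 to 0.0735 in edgeR or DESeq2. With age GASA14 fell by 1.14 ± 0.194 in eop055 apices, with an adjusted p of 0.000477 by edgeR. In pep1-1 apices its log2 fold change with age was 0.08 ± 0.189 (95% interval -0.33 to 0.49). The genotype difference in apices at 5 weeks minus that at 3 weeks was -1.22 ± 0.27 on the log2 scale (adjusted p 0.0113 by edgeR).

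GASA7 (AT2G14900), another member of that family, was read mainly in apices. At 5 weeks it stood at 3.77, 5.20 and 5.06 CPM in eop055 apices, against 10.6, 10.5 and 10.6 CPM in pep1-1 apices. The groups did not overlap, and GASA7 fell by 1.17 ± 0.214 on the log2 scale with an adjusted p of 0.000425 by edgeR. In leaves it had 11 reads in all in eop055 and 4 in all in pep1-1. Between 5 and 3 weeks it was 2.40-fold higher in pep1-1 apices (adjusted p 7e-05 by edgeR) and had a log2 fold change of 0.52 ± 0.236 in eop055 apices (adjusted p 0.0878). The eop055 change passed with library totals (0.64, adjusted p 0.0322 by edgeR) and with only those groups fitted (0.52, adjusted p 0.0458), over a range of 0.0322 to 0.245. The difference between these changes was -0.74 ± 0.321, with an adjusted p of 0.157 by edgeR. It passed with only the groups compared (-0.75, adjusted p 0.0359), over a range of 0.0359 to 0.303.

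PRE1 and PRE5 encode small helix-loop-helix proteins that promote cell elongation and respond to gibberellin in Arabidopsis. PRE1 stood at 4.60, 6.60 and 7.68 CPM in eop055 leaves, against 13.8, 16.7 and 12.1 CPM in pep1-1 leaves. PRE5 had 5, 4 and 11 reads in eop055 leaves, against 42, 35 and 21 reads in pep1-1 leaves. Neither gene's leaf libraries overlapped between genotypes. The log2 fold changes were -1.18 ± 0.21 for PRE1 and -2.12 ± 0.366 for PRE5, with adjusted p of 0.000229 and 0.000148 by edgeR.

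In apices neither PRE gene passed edgeR's test between genotypes. PRE1 had log2 fold changes of -0.29 ± 0.19 at 5 weeks and 0.10 ± 0.184 at 3 weeks, and PRE5 of -0.36 ± 0.305 and 0.36 ± 0.257. PRE5 fell by 1.30 ± 0.277 with age in eop055 apices (adjusted p 0.000714 by edgeR). Its change in pep1-1 apices was -0.57 ± 0.283 (adjusted p 0.113), and the difference between the 2 changes was -0.73 ± 0.399 (adjusted p 0.285). Between leaf and apex in pep1-1, PRE1 and PRE5 were called higher in leaves, with log2 fold changes of 0.46 ± 0.189 and 0.76 ± 0.292 (adjusted p 0.03 and 0.0199 by edgeR). With library totals these pep1-1 values were -0.33 and -0.03 and not called. PRE1 kept its direction and call in 8 of 14 alternatives, with adjusted p of 0.00444 to 0.165 in edgeR or DESeq2. PRE5 did so in 9 of 14, with adjusted p of 0.00482 to 0.935. In eop055 both were lower in leaves, PRE1 by 0.43 ± 0.212 (adjusted p 0.0659 by edgeR, not called) and PRE5 by 0.997 ± 0.39 (adjusted p 0.0217). Of 14 alternatives for eop055, PRE5 lost its call in 4 and PRE1 gained a call in 4.

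**Figure D4:**
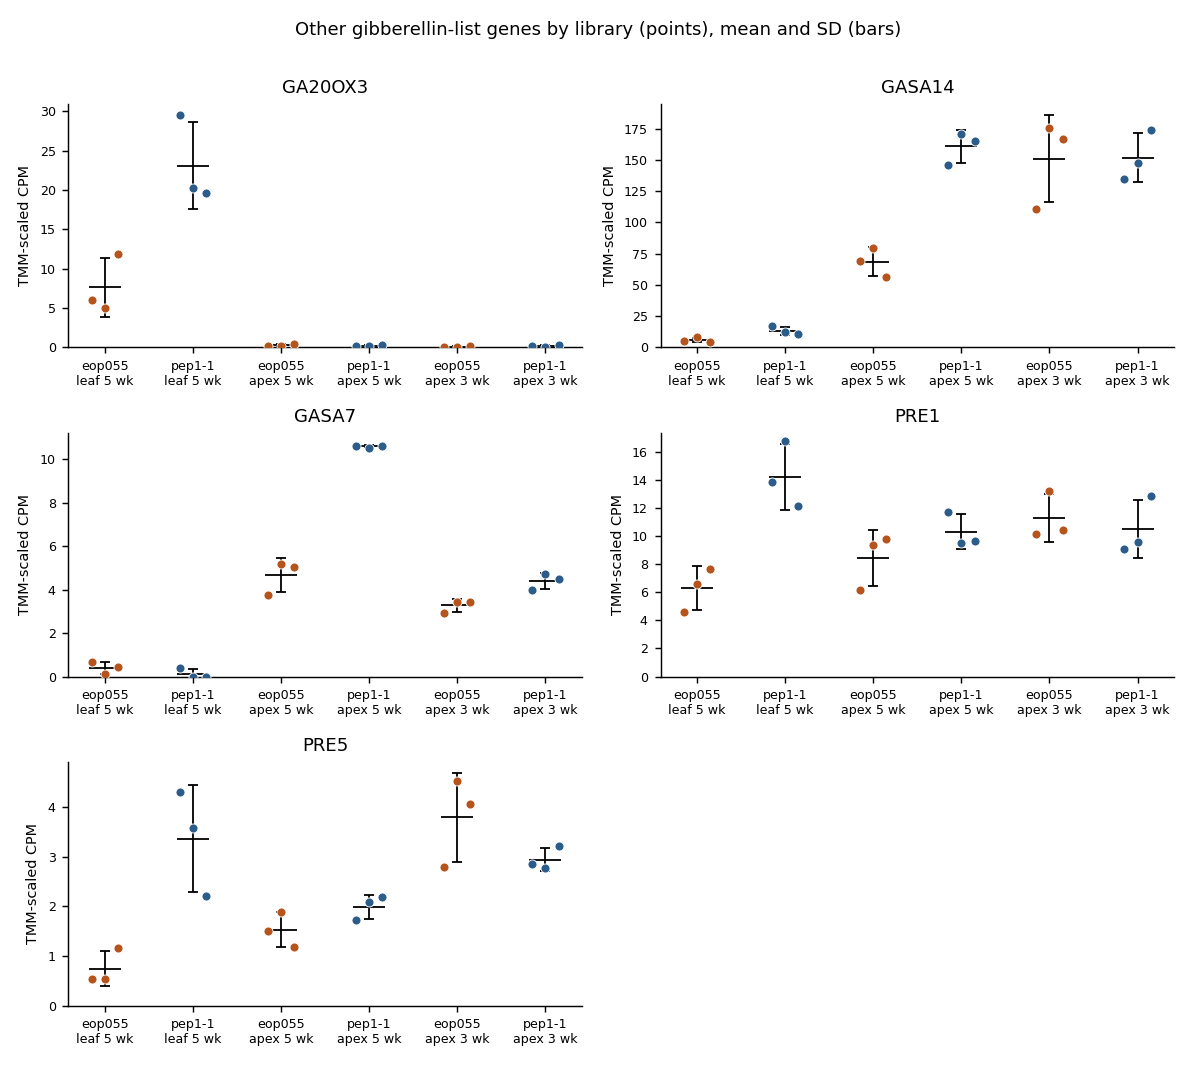
TMM-scaled CPM (y axis) of the 5 other paired genes of the gibberellin list in each library (points), by group (x axis), with group means and SD as bars (n = 3). In leaves GA20OX3, GASA14, PRE1 and PRE5 are lower in eop055 than in pep1-1 with no overlap, and in 5-week apices GASA14 and GASA7 are.

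The genes most like each member were looked for among 964 other genes that carry an Arabidopsis locus and average at least 5 CPM, by Pearson correlation of log2(CPM + 1). All of these genes had been called by the authors in 1 or more lists, and the libraries of a group share its condition, so the values are descriptions. Over the 18 libraries GA2OX6 was closest to CSLD2, a cellulose synthase-like gene, to AtIPCS2, an inositol phosphorylceramide synthase gene, and to AT1G17620, each at r = 0.985. The leaf and apex libraries form separate clusters, and for GA2OX6 these values mainly restate its difference between organs. Over the 12 apex libraries it was closest to GSTF3 (0.946), SAG21 (0.938) and bt1 (0.931). GA3OX1 was closest to SMR2 (0.804), MARD1 (0.792) and AT5G14210 (0.785) over 18 libraries. Over the 12 apex libraries its closest was SWEET12, a sucrose efflux transporter gene, at r = 0.933, and the third, AT1G49500, reached 0.902. GA2OX2 was closest to AT2G41450 (0.756), AT3G57930 (0.753) and AT2G36410 (0.736) over 18 libraries. Over the 12 apex libraries it was closest to AT1G07135 (0.784), PTI1-4 (0.780) and NUDT21 (0.765).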

How the data were processed

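Directional libraries of poly(A) RNA were read from 1 end, per the labels' protocols. The authors deposited raw read counts per gene for 18 libraries. Tools named in the submitters' processing notes are DESeq, DESeq2, STAR and HTSeq 0.5.4p1. The build, the annotation and the strand setting were not given in the sources used here, so overlapping, antisense and near-identical genes are uncertain. The authors' deposited lists hold, for each group, a mean normalised signal, and fold ratios, log2 fold changes and adjusted p-values, per the file headers, and served here only to pair 1399 gene identifiers with Arabidopsis loci.

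The 5 summary entries were left out of library sizes (reads outside genes 7.76 to 16.6%, ambiguous 2.01 to 3.60%). Counts were analysed with edgeR 4.0.16 in R 4.3.3: filterByExpr, TMM scaling (factors 1.15 to 1.27 in apices, 0.651 to 0.730 in leaves), 1 robust fit of 6 group means over 18 libraries, and quasi-likelihood F tests called at an adjusted p under 0.05 over 21275 genes (Benjamini-Hochberg). SE is the log2 fold change over the root of F. The procedure was tested on simulated counts. Alternatives were RLE, upper quartile and total scaling, no filter, 50 counts in 3 libraries, DESeq2 1.42.0, only the groups compared, a replicate block and leaving out each library. Total scaling, and the same alternatives for the 5 other list genes, were added after seeing the data. Deviations of same-numbered libraries correlated weakly or negatively (r from -0.199 to 0.089), so numbers were not taken as pairs. In 1 of 7 comparisons, 5 against 3 weeks in eop055 apices, every library correlated best with its own number (r from 0.051 to 0.083). Genes named were the 3 members, every paired gene of the list, and the 3 most correlated with each member over 18 and over 12 libraries. Of these most correlated genes 1 is not reported here. The members and lists were chosen with earlier results of these data known. Figures were drawn with matplotlib 3.10.9.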

Additional observations from a re-analysis of the deposited data

Results flagged for a closer look

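The genotype difference of 2 of the 8 paired genes changed with apex age by a direct test. Across all genes tested 10.6% were called in it, 6.16% lower. Both genes stand in the authors' list for 5-week apices, which are 1 arm of that test. For GA3OX1 the log2 difference between eop055 and pep1-1 at 5 weeks minus that at 3 weeks was -1.70 ± 0.236, and it lay between -1.84 and -1.62 with any 1 of 12 apex libraries left out. For GASA14 it was -1.22 ± 0.27, between -1.39 and -1.10 over the same libraries. The 7 paired floral genes, all drawn from the authors' lists, were higher in the eop055 apices at 5 weeks. Their part in either change was not tested.

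For 3 of the 8 paired genes the genotype difference in leaves minus that in 5-week apices passed edgeR's test. Across all genes tested 20.1% were called in it, 10.9% higher and 9.16% lower. PRE1 and PRE5 were listed from the leaf comparison and GASA7 from the 5-week apex comparison, each 1 arm of that test. The value was -0.89 ± 0.284 for PRE1, which was not called in 6 of 20 alternatives, and -1.76 ± 0.486 for PRE5, which was called in all 20. For GASA7 it was 2.72 ± 0.819, but GASA7 had 11 reads in eop055 and 4 in pep1-1 over the leaf libraries. It was not called without pep1-1 leaf replicate 2 (adjusted p 0.0631) or 3 (0.0603) or eop055 leaf replicate 1 (0.134), which are 3 of 20 alternatives run in edgeR or DESeq2. All 4 pep1-1 reads were in pep1-1 replicate 1, so no fold can be given without it.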

How the results depend on the processing

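Of 27 results for GA3OX1, GA2OX2 and GA2OX6, 14 kept their direction and call under every alternative run. Over 414 alternative values 378 kept both, 18 lost the call, 12 gained it and 6 turned sign. The causes were not tested. With only the groups compared, GA3OX1 in 3-week apices between genotypes was 0.51 and called, GA2OX6 in leaves was 1.72 and not called, GA2OX6 with age in pep1-1 was -1.24 and called, and GA2OX2 between leaf and apex in pep1-1 was -0.69 and called. GA2OX2 between genotypes in leaves was not called with upper quartile scaling (1.21), library totals (1.21), no filter (1.32), only the groups compared (1.34) or the replicate block (1.33). With library totals GA2OX2 between leaf and apex was -0.15 in eop055, with its sign turned, and -1.52 and called in pep1-1. DESeq2 called GA2OX2 between leaf and apex in eop055 (0.89), the leaf minus apex genotype effect of GA2OX2 (1.53) and GA2OX6 (2.35), and GA2OX6 with age in pep1-1 (-1.29).

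With single libraries left out, GA3OX1 ranged from -0.62 to -0.48 with age in eop055 and from -0.73 to -0.37 between leaf and apex in eop055. GA2OX6 ranged from -2.41 to -1.75 with age in eop055 and from 2.00 to 2.74 in the leaf minus apex genotype effect. GA2OX2 ranged from -0.43 to 0.085 between genotypes in 5-week apices, from 0.88 to 1.75 in leaves, from 0.33 to 1.196 between leaf and apex in eop055, from -0.18 to 0.33 in the age effect on the genotype difference and from 1.06 to 1.93 in the leaf minus apex effect.

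Among the 5 other genes, some values turned sign, and the first 6 given here were uncalled. GA20OX3 ranged from -0.15 to 0.70 in 5-week apices and from -0.22 to 0.92 with age in pep1-1. GASA14 ranged from -0.14 to 0.17 in 3-week apices and from -0.23 to 0.25 in the leaf minus apex effect, which was -0.092 with upper quartile scaling and -0.097 with library totals. PRE1 ranged from -0.038 to 0.27 in 3-week apices and from -0.13 to 0.15 with age in pep1-1, with 0.004 under upper quartile scaling and 0.091 under library totals. Between leaf and apex in pep1-1, PRE1 (0.46) and PRE5 (0.76) were called, and under library totals they were -0.33 and -0.027 and not called.

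Called genes numbered 783 in 3-week apices, 1712 with only those groups fitted and 359 to 592 with a library left out. In leaves they numbered 5661, and 3424 with only those groups. The share higher was 70% in 3-week apices and 58.2% with only those groups. It was 56.3% in leaves, 34.9% with upper quartile scaling and 36.2% with library totals, which moved the median gene to -0.12. With library totals the median gene moved to -1.05 between leaf and apex in eop055 and -0.92 in pep1-1. The higher share between leaf and apex was 46.9% and 25.8% in eop055, and 46.5% and 24.6% in pep1-1, with TMM and library totals. With age it was 46.1% and 66.8% in eop055, and 47.9% and 67.3% in pep1-1. For the leaf minus apex effect it was 54.4%, 35.0% with upper quartile scaling and 34.8% with library totals.

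The 21 same-numbered pairs correlated from -0.199 to 0.089, and in 1 of 7 comparisons every library correlated best with its own number. The replicate block changed no other call of the 3 genes and moved the counts of called genes by 0.997 to 1.04 times. GA2OX6 in 5-week apices and GA20OX3, GASA7 and PRE5 where they held under 15 reads a library are limited by depth.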
